A study of Arabidopsis thaliana with 12 samples.

Results

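The 5 genes AT5G19120, AT3G26510, AT3G15450, AILP1 and ATL8 are known as transcripts that mark low sugar in Arabidopsis. They were picked by name as transcripts that sugar represses or that carbon starvation induces, and each has 1 probe set among the 22746 on the array that are not controls. All 5 passed a filter that kept the 16121 probe sets with a signal of 20 on 3 or more arrays. AT5G19120 reached 20 on 5 ape2 arrays, 2 in H and 3 in L, and on 1 Ws-2 array, in L. ATL8 reached it on the 6 arrays of condition L only, and the other 3 genes on all 12. The genes were chosen with earlier results of these data in view, and which values chose them is not recorded. Since 4 of them are past the threshold in a genotype comparison, the genotype differences are given as a description with no test. ATL8 is past it in neither, and its difference between the conditions is also given without a test.

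The arrays carry RNA of mature, unshaded rosette leaves of Arabidopsis thaliana at developmental stage 3.7, on 12 single-colour arrays, 3 in each of 4 groups. The groups were the line ape2 in condition H, the accession Ws-2 in condition H, ape2 in condition L and Ws-2 in condition L. Ws-2 served as wild type, and ape2 is 1 line with a T-DNA insertion in the Ws-2 background, from a series on a mutant of TPT, the translocator that exports triose phosphates from the chloroplast. The titles do not say what H and L stand for, and the sources used here give neither age in days nor treatment. TPT has no probe set named in the annotation, and the genotype labels were therefore not checked on it.

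In Arabidopsis, sugar made by photosynthesis is both a fuel and a signal. When carbon runs short the kinase SnRK1 is active and transcripts for the breakdown of protein, lipid and amino acids rise, while sugar represses them. The 5 genes are counted among these sugar-repressed transcripts and belong to unlike protein classes. AT5G19120 is annotated as an aspartyl protease family protein, AT3G26510 as a protein with a PB1 domain, AT3G15450 and AILP1 as relatives that share the YGL and LRDR motifs of aluminium-induced proteins, and ATL8 as a membrane RING-H2 protein of the type that serves as a ubiquitin ligase. Sugars themselves were not measured on these arrays.

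Signals are linear array units, scaled so that the trimmed mean of an array is 100. The median probe set lay between 36.5 and 40.4 on the 12 arrays, and the correlation of log2 signals was 0.975 to 0.985 between arrays of a group and 0.953 to 0.981 between arrays of different groups. Leaves were measured whole, so fewer cells of a type and less RNA per cell cannot be told apart. Of 5 leaf mesophyll markers only RCA has a probe set named here, at 3645 to 4889 units over all arrays. Of 9 markers of other cells 3 were measured (FMA, EXPA7 and AUR1), with a summed signal in condition H of 114 to 139 for ape2 and 112 to 123 for Ws-2, and in condition L of 125 to 136 for ape2 and 120.3 to 129.7 for Ws-2, with none at 0 on any array. SAG101, the 1 measured gene of 4 senescence markers, was at 0.30 on the log2 scale in ape2 against Ws-2 in each condition (limma, adjusted p = 0.43 in H and 0.417 in L), and without Ws-2 H 1 it passed in H (0.0474). The part of these markers in the results was not tested.

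AT5G19120 was dim in Ws-2 and brighter in ape2 in both conditions. Its signals in condition H were 18.0, 28.8 and 29.7 in ape2, against 3.23, 2.72 and 2.62 in Ws-2. In condition L they were 75.5, 72.2 and 82.8 in ape2, against 12.7, 22.8 and 10.5 in Ws-2. Every ape2 array lay above every Ws-2 array of the same condition, and all 3 Ws-2 H arrays and 2 of 3 Ws-2 L arrays were under the filter signal of 20, too dim to give a ratio of signals. On the scale log2(signal + 10), which shrinks the changes of dim transcripts, the differences were 1.45 ± 0.20 in H and 1.81 ± 0.20 in L (SE). Their sizes rest on the offset: with an offset of 1 they were 2.75 and 2.32, and with 32 they were 0.71 and 1.21, so that the order of the conditions turns with it.

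AT3G26510 had its highest signals in ape2 in condition H. Its signals in H were 522, 521 and 599.7 in ape2, against 266, 188 and 206 in Ws-2. In L they were 338, 344 and 286 in ape2, against 257, 228 and 228 in Ws-2. The genotypes did not overlap in either condition. The log2 difference was 1.29 ± 0.11 in H and 0.42 ± 0.11 in L, that is 2.49 and 1.36 times the mean signal of Ws-2.

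AT3G15450 and AILP1 come from the same protein family and differed in how far the genotypes stood apart. AT3G15450 gave 84.2, 64.1 and 81.2 in ape2 H, against 55.8, 55.4 and 67.0 in Ws-2 H. It gave 80.9, 102 and 106 in ape2 L, against 73.2, 69.7 and 68.2 in Ws-2 L. The genotypes overlapped in H, through 1 ape2 and 1 Ws-2 array, and not in L, and the log2 differences were 0.31 ± 0.12 in H and 0.40 ± 0.12 in L.

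AILP1 gave 579, 812 and 605 in ape2 H, against 413, 254 and 285 in Ws-2 H. Its signals were 674, 839.6 and 565 in ape2 L, against 522, 430 and 383 in Ws-2 L. The genotypes were apart in both conditions although the arrays of a group were spread widely, with an SD of 128 around a mean of 665 in ape2 H and of 84.5 around 318 in Ws-2 H. The log2 difference was 1.06 ± 0.20 in H and 0.62 ± 0.20 in L.

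ATL8 was dim, with signals under 40 on every array, and its genotypes stood closer than its conditions. Its signals were 15.6, 14.5 and 15.7 in ape2 H, against 6.86, 14.1 and 8.37 in Ws-2 H. They were 33.1, 27.8 and 38.5 in ape2 L, against 20.9, 21.2 and 27.7 in Ws-2 L. The groups were only just apart, since the lowest ape2 array and the highest Ws-2 array nearly met in both conditions. The log2 differences were 0.37 ± 0.19 in H and 0.38 ± 0.19 in L.

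**Figure D1:**
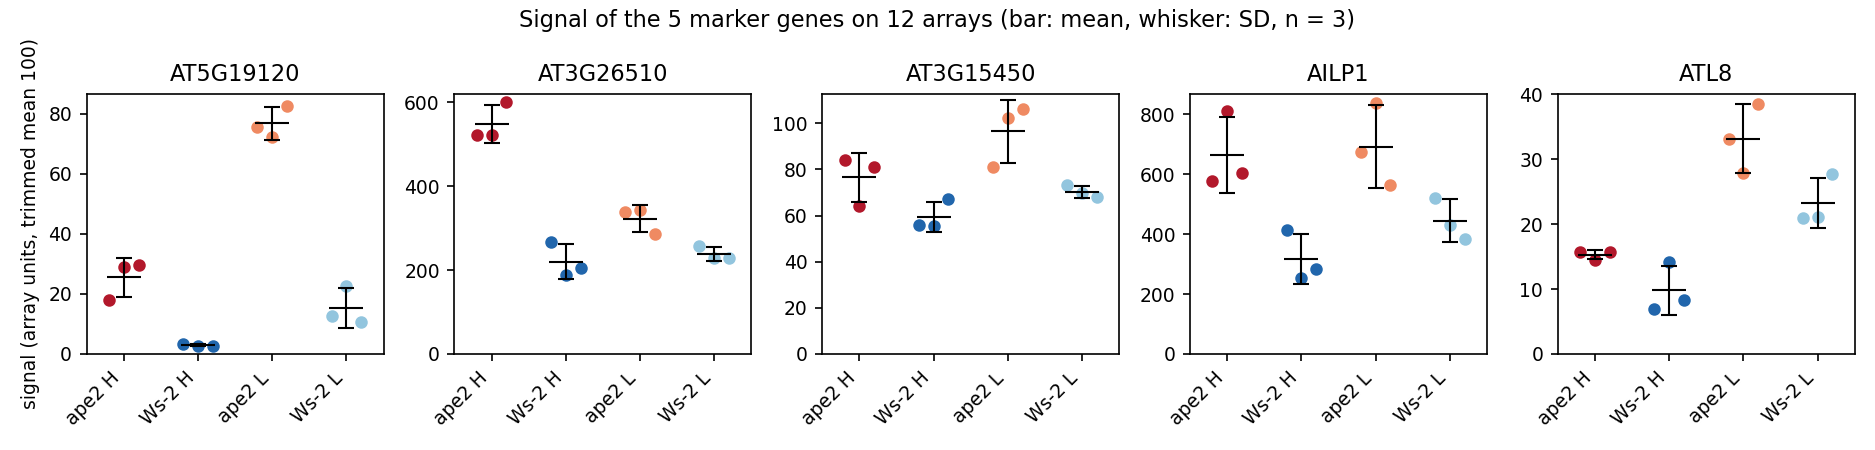
Signal in array units of each of the 5 genes on the 12 arrays. Each point is 1 array, the bar the mean and the whisker the SD (n = 3), with axes that start at 0. AT5G19120 averages 25.5 for ape2 and 2.86 for Ws-2 in H, and 76.8 for ape2 and 15.3 for Ws-2 in L, while AT3G26510 is highest in ape2 H at 548.

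All 5 genes had a positive genotype difference in each condition, beside 47.5% of all tested probe sets in H and 51.4% in L. Of the 5, 3 were past an adjusted p of 0.05 in H (AT5G19120, AT3G26510 and AILP1) and 3 in L (AT5G19120, AT3G26510 and AT3G15450), where limma, a linear model fitted over all probe sets, placed 4.97% and 4.99% of all tested probe sets higher in ape2. The groups did not overlap and were higher in ape2 for 4 of the 5 in H and 5 in L, beside 12.7% and 13.4% of all tested, and in both conditions for 4, beside 5.95%. Nothing is read from these counts, since the genes were chosen with them known. Ranked from the highest difference down among 16121 probe sets, AT5G19120 stood at 40 in H and at 7 in L, AT3G26510 at 59 and 1012, AILP1 at 108 and 422, AT3G15450 at 1503 and 1140, and ATL8 at 1141 and 1276.

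The comparison of condition H with condition L, averaged over both genotypes, has no covariance with the genotype differences in this balanced design. Both still use the same estimate of a gene's spread, so a choice by genotype p-value favours genes of small spread here too. The comparison was tested for the 4 genes past the threshold in a genotype comparison. Their p-values may be too small for that reason, and are too small if values between the conditions also entered the choice. ATL8, past the threshold in neither genotype comparison, may have been chosen on such values. AT5G19120 fell in H, by -1.13 ± 0.14 on the log2 scale (SE, n = 6 arrays a condition, limma with Benjamini-Hochberg adjustment, adjusted p = 1.02e-04). It reached the filter signal on 3 ape2 and 1 Ws-2 arrays in L, against 2 ape2 and 0 Ws-2 arrays in H. AT5G19120 thus passed the filter through condition L, where it is higher, and nothing is read from that call. Its mean signal was 25.5 ± 6.53 in ape2 H, against 76.8 ± 5.42 in ape2 L (SD, n = 3). In Ws-2 it was 2.86 ± 0.33 in H, against 15.3 ± 6.55 in L. Both genotypes had every H array below every L array. The log2 differences were -1.31 ± 0.20 in ape2 and -0.95 ± 0.20 in Ws-2, and with an offset of 1 they were -1.59 and -2.01, so that which genotype fell further depends on the offset.

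AT3G26510 passed the test in the opposite direction, at 0.31 ± 0.08 (limma, adjusted p = 0.0241). That mean joins 2 unlike values, a difference of 0.75 ± 0.11 in ape2 and of -0.12 ± 0.11 in Ws-2. In ape2 the mean signal was 548 ± 45.1 in H, against 322 ± 32.1 in L, with no overlap. In Ws-2 it was 219.8 ± 41.1 in H, against 238 ± 16.9 in L, and the arrays overlapped. It no longer passed without ape2 array 3 of either condition or without Ws-2 L 2 or 3 (limma adjusted p up to 0.0656), with no filter (0.0502) and with a constant prior (0.0672).

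AT3G15450 and AILP1 did not pass the test between the conditions. AT3G15450 had a mean of 76.5 ± 10.8 in ape2 H, against 96.4 ± 13.6 in ape2 L, and of 59.4 ± 6.56 in Ws-2 H, against 70.4 ± 2.60 in Ws-2 L. Its log2 difference averaged over the genotypes was -0.26 ± 0.09 (limma, adjusted p = 0.0819), and it passed without ape2 L 1 alone (-0.31, adjusted p = 0.0367). AILP1 had a mean of 665 ± 128 in ape2 H, against 693 ± 138 in ape2 L, and of 318 ± 84.5 in Ws-2 H, against 445 ± 70.9 in Ws-2 L. Its averaged difference was -0.27 ± 0.14 (limma, adjusted p = 0.307), made up of -0.06 ± 0.20 in ape2 and -0.49 ± 0.20 in Ws-2.

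ATL8, described with no test, was lower in H by nearly the same amount in each genotype, at -0.76 ± 0.19 in both. Its mean signal was 15.3 ± 0.68 in ape2 H, against 33.2 ± 5.34 in ape2 L, and 9.78 ± 3.83 in Ws-2 H, against 23.2 ± 3.84 in Ws-2 L. Every H array lay below every L array in each genotype. With an offset of 1 the differences were -1.06 in ape2 and -1.21 in Ws-2, and with 32 they were -0.46 and -0.40.

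**Figure D2:**
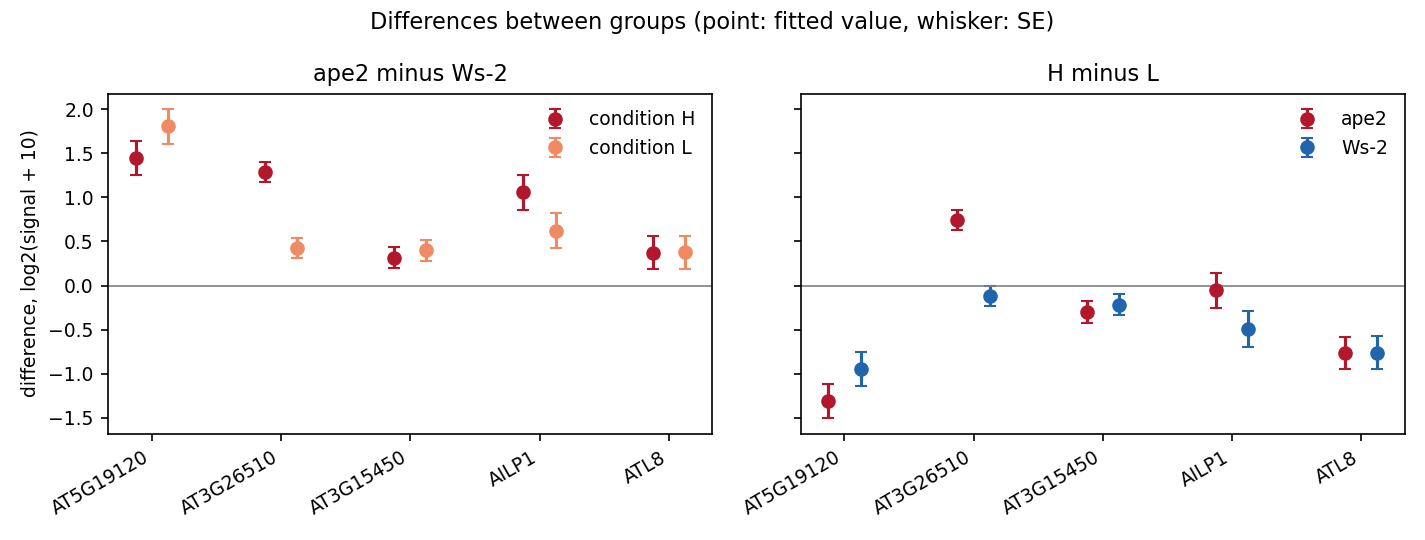
Differences on the scale log2(signal + 10) for the 5 genes, ape2 minus Ws-2 in each condition on the left and H minus L in each genotype on the right, with whiskers of 1 SE. AT3G26510 is alone in having a positive H minus L value, 0.75 in ape2, beside -0.12 in Ws-2, and the ATL8 values of the genotypes coincide at -0.76.

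Among the 4 genes tested between the conditions, 1 fell and 1 rose, where 4.58% of all probe sets fell and 3.65% rose in limma's test. The median averaged difference of these 4 genes, without ATL8, was -0.27, against -0.01 for all tested. Of the 4, the H arrays all lay below the L arrays for 1 in ape2 (AT5G19120) and for 2 in Ws-2 (AT5G19120 and AT3G15450), beside 12.8% and 10.1% of all tested. They lay above the L arrays for 1 gene in ape2 (AT3G26510), beside 9.04%. AT5G19120 was lower without overlap in both genotypes, as were 3.55% of all tested probe sets. Nothing is read from these counts, which share arrays with the genotype comparisons. Actin control probe sets for its 3' and 5' ends report on RNA integrity. For a pair of them the 3'/5' ratio was 2.41 ± 0.12 for ape2 and 2.63 ± 0.36 for Ws-2 in H, against 2.73 ± 0.21 for ape2 and 2.98 ± 0.23 for Ws-2 in L (SD, n = 3). A further actin pair gave 3.70 ± 0.45 for ape2 and 4.14 ± 0.72 for Ws-2 in H, against 4.03 ± 0.43 for ape2 and 4.25 ± 0.14 for Ws-2 in L. GAPDH pairs had group means of 1.77 to 2.05 and of 1.10 to 1.24. All these ratios were lower on average in H within each genotype and in ape2 within each condition. Their part in these results was not tested.

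The order of the 4 group means differed among the genes. AT5G19120 and AT3G15450 both ran ape2 L, ape2 H, Ws-2 L, Ws-2 H from high to low, and AILP1 had the same order. For AT5G19120 the middle pair, ape2 H and Ws-2 L, overlapped. For AT3G15450 only the last pair, Ws-2 L and Ws-2 H, was apart, and for AILP1 only the middle pair. ATL8 ran ape2 L, Ws-2 L, ape2 H, Ws-2 H, with all neighbours apart. AT3G26510 ran ape2 H, ape2 L, Ws-2 L, Ws-2 H, with the last pair overlapping.

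Each gene's variation over the 12 arrays was also split into parts. ATL8 passed the filter through condition L alone, where it is higher, so nothing is read from the size of its condition part. For ATL8 the condition held 71.8% of the sum of squares and the genotype 17.3%. For AT5G19120 the genotype held 64.6% and the condition 31.1%, and for AT3G15450 49.6% and 25.9%. For AILP1 the genotype held 67.5%, the condition 7.22% and the spread within groups 20.7%. AT3G26510 had 67.2% for the genotype, 9.01% for the condition and 17.3% for their interaction, the largest interaction part of the 5. Its genotype difference was larger in H than in L by 0.87 ± 0.16, while for AILP1 this value was 0.44 ± 0.28, for ATL8 -0.0039 ± 0.26 and for AT3G15450 -0.08 ± 0.17. For AT5G19120 it was -0.36 ± 0.28 and became 0.43 with an offset of 1, so that it has no settled sign.

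**Figure D3:**
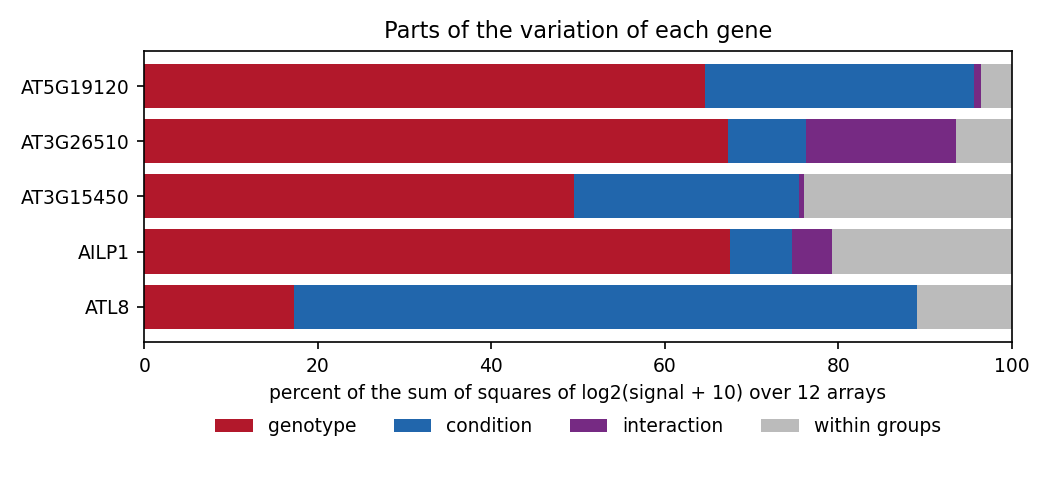
Percent of the sum of squares of log2(signal + 10) over the 12 arrays that lies between the genotypes, between the conditions, in their interaction and within groups, for each of the 5 genes. The condition holds 71.8% for ATL8, which passed the filter through condition L alone, and 7.22% for AILP1. The interaction is widest for AT3G26510 at 17.3%.

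The 5 genes were not all alike across the 12 arrays. AT5G19120 had a Pearson r of 0.84 with AT3G15450, 0.80 with AILP1 and 0.80 with ATL8, and of 0.46 with AT3G26510. The r between AT3G26510 and ATL8 was 0.02. These values mostly follow the group means. Once each group's mean was taken off, AT5G19120 had an r between -0.19 and 0.13 with the other genes. Under the same treatment AILP1 and AT3G26510 had an r of 0.71, and ATL8 had -0.82 with AILP1 and -0.72 with AT3G26510. These are the values largest in size among all pairs of the 5 genes within groups. They were not tested, and ATL8 was dim, so no shared pattern is read from them. All are descriptions over 12 arrays that share the 4 groups.

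For each gene the 3 named genes with the most similar pattern were taken among 9020 other tested probe sets with 1 gene. Closest to AT5G19120 were AT5G06700, listed as TRICHOME BIREFRINGENCE, at r = 0.969, AT5G61590, listed as DEWAX, at 0.960, and AT5G16030 at 0.960. With the group means taken off, their r was 0.51, -0.15 and 0.42, so the likeness of AT5G61590 lies in the group means. AT5G61590 averaged 71.1 ± 5.51 for ape2 and 36.0 ± 1.69 for Ws-2 in H, and 115 ± 9.46 for ape2 and 48.2 ± 3.09 for Ws-2 in L. Closest to AT3G26510 were AT5G52780 at 0.965, AT1G01490 at 0.961 and ATG8F, a ubiquitin-like protein of autophagosomes, at 0.947. After the group means were taken off, their r with AT3G26510 was 0.81, 0.77 and 0.92. ATG8F averaged 749.8 ± 23.4 for ape2 and 471 ± 74.0 for Ws-2 in H, and 650.2 ± 52.2 for ape2 and 474 ± 16.3 for Ws-2 in L.

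Closest to AILP1 were AT3G55960 at 0.963, AT5G49760 at 0.962 and AT2G41250 at 0.960, each with an r of 0.81 to 0.84 within groups. AT2G41250 averaged 311 ± 88.8 for ape2 and 154 ± 27.8 for Ws-2 in H, and 304 ± 70.2 for ape2 and 212 ± 19.7 for Ws-2 in L. Closest to AT3G15450 were AT5G12410 at 0.922, AT4G19320 at 0.918 and AT5G19050 at 0.914, with an r of 0.62 to 0.71 within groups. Closest to ATL8 were AT5G18600 at 0.976, AT1G26920 at 0.936 and AT5G44530 at 0.929, with an r of 0.43 to 0.85 within groups. AT5G18600 averaged 1020 ± 15.8 for ape2 and 868 ± 77.1 for Ws-2 in H, and 1372 ± 33.1 for ape2 and 1124 ± 47.9 for Ws-2 in L. The number of named genes with an r of at least 0.9 was 49 for AILP1, 48 for AT5G19120, 15 for ATL8, 11 for AT3G26510 and 5 for AT3G15450, and none of the 15 nearest genes was shared by any of the 5.

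**Figure D4:**
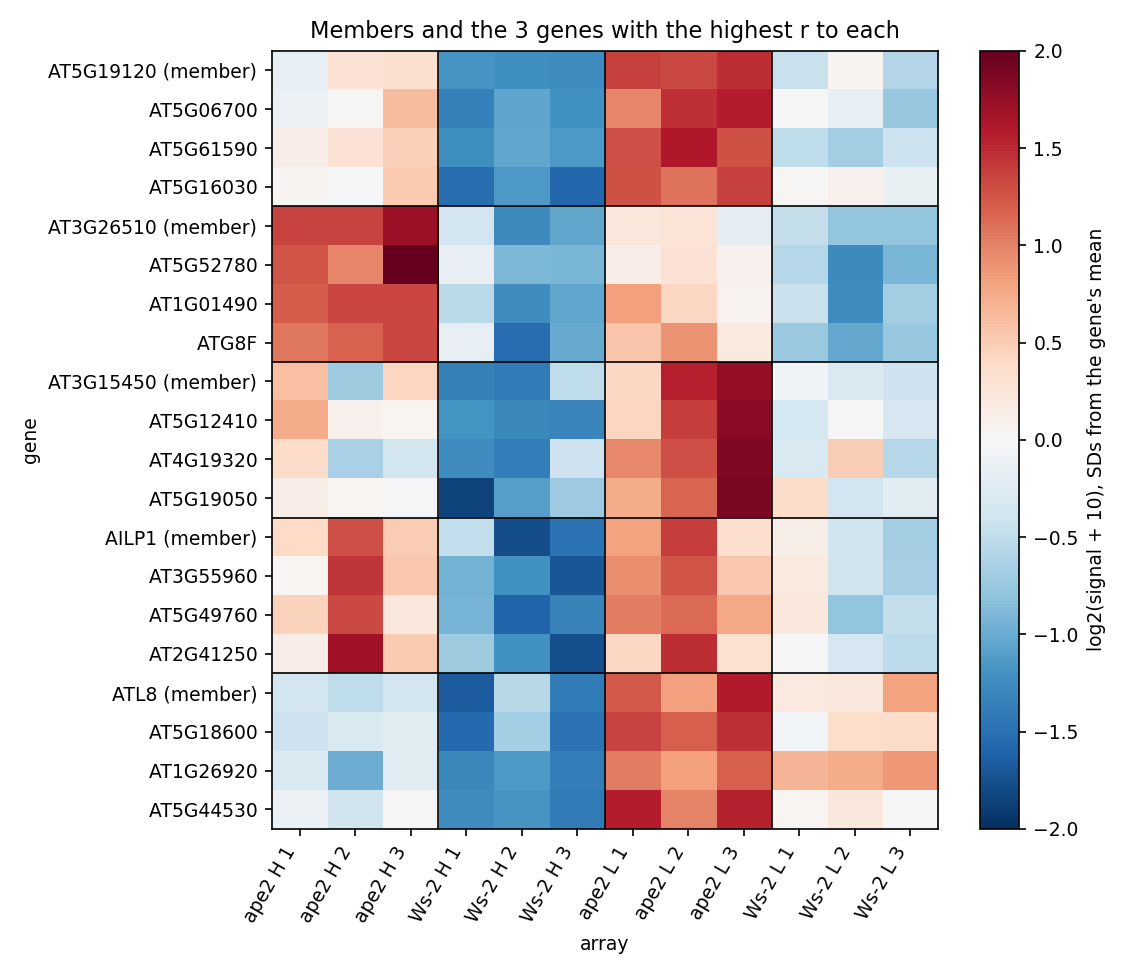
Each row is a gene and each column an array, coloured by log2(signal + 10) in SDs from the gene's mean over the 12 arrays. The 5 genes are each followed by the 3 named genes with the highest r. The block of AT3G26510, with r of 0.947 to 0.965, is highest in the ape2 H arrays, while that of ATL8, with r of 0.929 to 0.976, is highest in the ape2 L arrays.

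The YGL/LRDR family, to which AT3G15450 and AILP1 belong, has 5 genes and all were measured. Of the other 3, limma called 0 in either genotype comparison or between the conditions, with 1, 1 and 0 at an unadjusted p under 0.05 in H, in L and between the conditions, beside 22.8%, 22.8% and 20.9% of all tested. Since 4.97% and 4.99% of all tested were called higher in H and L and 5.53% and 4.78% lower, a count of 0 among 3 genes does not set the family apart. AT4G27450 came closest, at 0.31 ± 0.19 in H (limma, adjusted p = 0.374) and 0.59 ± 0.19 in L (0.0639). Its signals were 41.8, 59.1 and 47.7 in ape2 H, against 37.6, 38.4 and 37.4 in Ws-2 H. They were 67.6, 99.3 and 44.0 in ape2 L, against 42.6, 41.9 and 39.5 in Ws-2 L. The ape2 arrays were higher without overlap but widely spread, and without ape2 L 3 the gene passed in L (limma, adjusted p = 0.00402) and between the conditions (0.049). It also passed in L with the replicate number as a block (0.0451), though the labels do not say what same-numbered arrays share. AT3G22850 was at -0.15 in H and 0.10 in L (limma, adjusted p = 0.476 and 0.657). AT5G43830 was at 0.18 and 0.05 (0.153 and 0.78).

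Of 36 other genes listed as repressed by sugar or induced by starvation, 4 have a probe set named here and all were tested. They include AKINBETA1, a regulatory subunit of SnRK1, and BZIP53, a bZIP transcription factor of the low-energy response. Of the 4, 2 rose in ape2 in H and 1 in L, and 0 fell, where limma placed 4.97% and 4.99% of all probe sets higher. The list was drawn up with earlier results of these data known. Nothing is therefore read from this count, and the p-values of its genes may be too small. AKINBETA1 gave 66.4, 83.2 and 78.7 in ape2 H, against 36.1, 34.1 and 31.5 in Ws-2 H (0.97 ± 0.11, limma adjusted p = 3.97e-05). It gave 81.1, 73.0 and 64.7 in ape2 L, against 38.0, 33.3 and 36.2 in Ws-2 L (0.85 ± 0.11, adjusted p = 1.97e-04). Between the conditions AKINBETA1 was at -0.0048 ± 0.08 (limma, adjusted p = 0.986).

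BZIP53 rose in ape2 in condition H, with 148, 165 and 129 in ape2, against 109, 83.9 and 99.5 in Ws-2 (0.55 ± 0.11, limma adjusted p = 0.00342). In L it was at 0.22 ± 0.11 (adjusted p = 0.241). AT5G38710, listed as the proline dehydrogenase gene PRODH2, was dim, reached 20 units on 4 ape2 arrays and on 0 Ws-2 arrays, and stood at 0.52 ± 0.21 in H (limma, adjusted p = 0.148) and 0.17 ± 0.21 in L (0.697). The fourth was AT4G27450. The median of the 4 was 0.53 in H and 0.40 in L, against -0.01 and 0.01 for all tested. Leaving out AT5G38710, which passed the filter through ape2 alone, the median of the other 3 was 0.55 in H and 0.59 in L. That value in L is the one of AT4G27450, which was not called. Between the conditions limma called 0 of the 4, with 1 at an unadjusted p under 0.05, beside 20.9% of all tested.

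Of the 7 subunits of SnRK1, 3 were measured. This list was also chosen with earlier results known, so its p-values may be too small. Beside AKINBETA1, the subunit gene AT4G16360 (AKINBETA2) fell in ape2 in H, with a mean of 151 ± 15.0 in ape2, against 193 ± 11.7 in Ws-2 (-0.34 ± 0.09, limma adjusted p = 0.0289). That call was lost with a constant prior and without ape2 array 1 or 3 or Ws-2 array 2 or 3 of condition H (adjusted p up to 0.129). In L it was at -0.25 ± 0.09 (adjusted p = 0.109). AT2G28060 (AKINBETA3) was at 0.12 ± 0.09 in H and 0.01 ± 0.09 in L (limma, adjusted p = 0.494 and 0.978).

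Genes that sugar induces were measured for comparison, 4 of the 18 listed. This list too was drawn up with earlier results known, so its p-values may be too small and nothing is read from its counts. In ape2, 1 fell in H (APL3) and 2 fell in L (APL3 and APL4) and 0 rose, where 5.53% and 4.78% of all probe sets fell by limma. The median of the 4, APL4 included, was -0.19 in H and -0.38 in L. APL3, which encodes a regulatory subunit of the starch-synthesis enzyme AGPase, gave 74.9, 82.3 and 73.7 in ape2 H, against 130.4, 108 and 112 in Ws-2 H (-0.54 ± 0.11, limma adjusted p = 0.00322). It gave 50.9, 46.3 and 46.0 in ape2 L, against 104, 80.4 and 88.9 in Ws-2 L (-0.80 ± 0.11, adjusted p = 1.69e-04). APL3 also rose in H averaged over the genotypes (0.46 ± 0.08, limma adjusted p = 0.00108), the direction of AT3G26510 and opposite to that of AT5G19120. APL4, a related subunit that is dim, reached 20 units on 1 ape2 array and 5 Ws-2 arrays. It thus passed the filter through Ws-2, where it is higher. It was lower in ape2 in L (-0.62 ± 0.18, limma adjusted p = 0.0436), and nothing is read from that call. The call was lost with no filter (0.0529) and with the replicate number as a block (0.062), and among fits that leave out 1 array it passed only in those without ape2 L 1 or Ws-2 H 3 (otherwise up to 0.181). DFR of anthocyanin synthesis and UF3GT, an anthocyanin glycosyltransferase, did not pass in the genotype comparisons. DFR went the other way from APL3, at 0.29 ± 0.15 in H and 0.34 ± 0.15 in L (limma, adjusted p = 0.277 and 0.184). Its ape2 arrays all lay above its Ws-2 arrays in each condition, in L only just. UF3GT was at -0.11 ± 0.21 in H and -0.14 ± 0.21 in L (limma, adjusted p = 0.828 and 0.764).

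**Figure D5:**
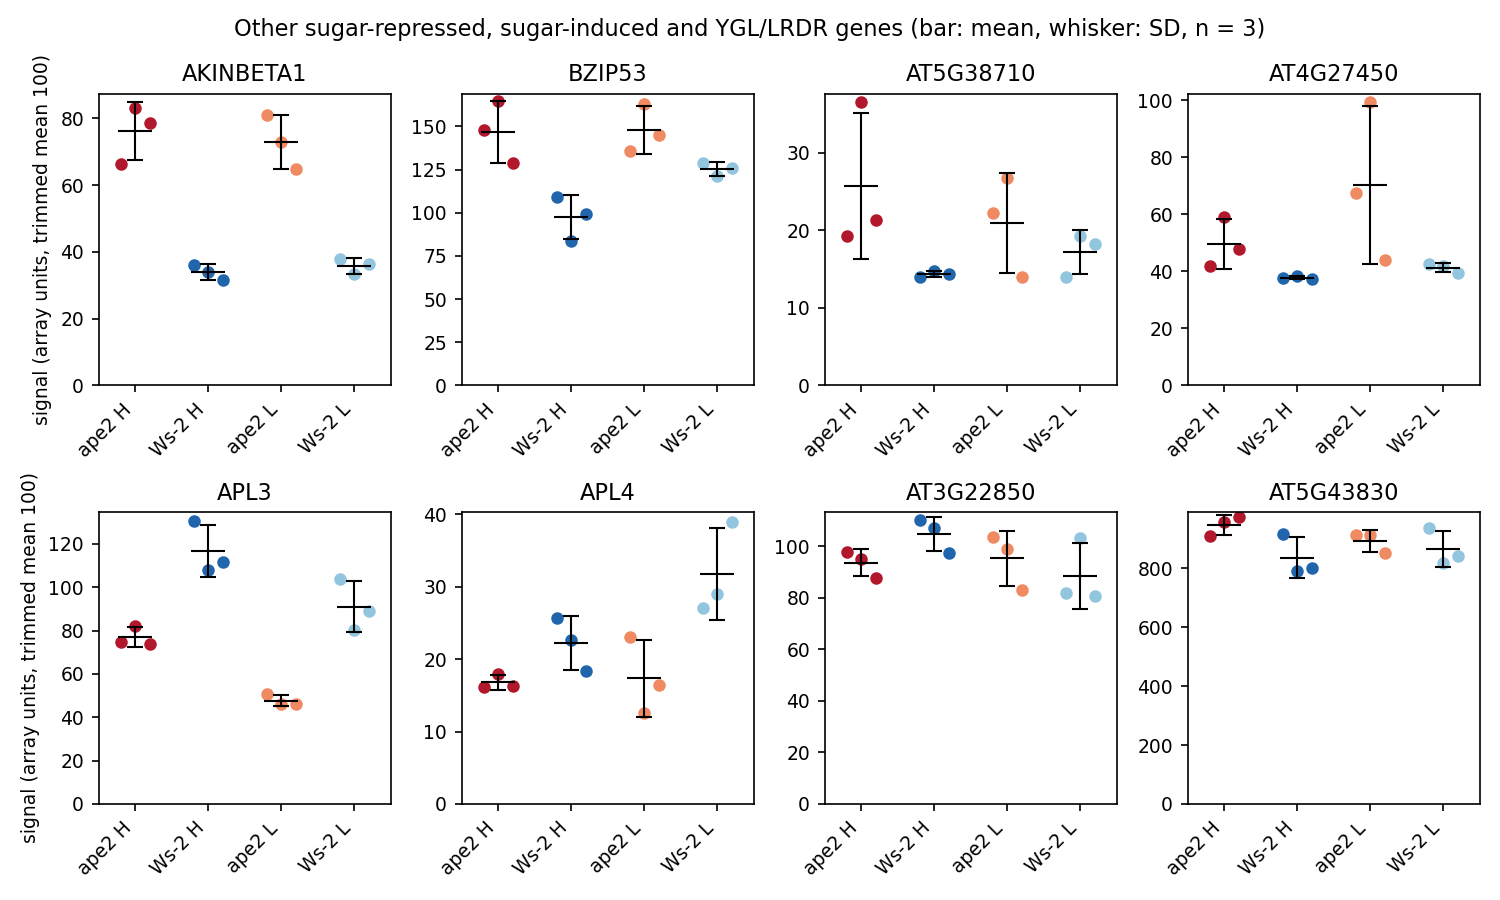
Signal in array units of 8 other genes on the 12 arrays. The sugar-induced genes DFR and UF3GT are not shown. The points are arrays, the bar is the mean and the whisker the SD (n = 3), with axes that start at 0. AKINBETA1 lies at 64.7 to 83.2 on all ape2 arrays and at 31.5 to 38.0 on all Ws-2 arrays, APL3 is lower in ape2 in each condition, and AT3G22850 and AT5G43830 overlap between the genotypes in L.

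AT5G19120 and AILP1 lie close together on chromosome 5, with AT5G19130 as the only protein-coding gene between them in the RefSeq annotation of TAIR10.1. AT5G19130 did not pass in either genotype comparison, at -0.22 ± 0.19 in H (limma, adjusted p = 0.565) and 0.34 ± 0.19 in L (0.308). AT5G19150, whose span overlaps that of AILP1 in the annotation, was at 0.03 ± 0.13 in H and 0.12 ± 0.13 in L (limma, adjusted p = 0.93 and 0.627). AT5G19100, on the other side of AT5G19120 and also of the aspartyl protease family, was at 0.16 ± 0.11 and 0.19 ± 0.11 (0.432 and 0.315), and AT5G19110 was too dim to be tested. The r over 12 arrays was 0.80 between AT5G19120 and AILP1, and 0.38 and 0.30 between AT5G19130 and these neighbours.

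Around all 5 genes, the nearest 2 protein-coding genes on each side comprised 9 tested genes that are not members. In ape2, 0 of the 9 rose in H and 2 fell, beside 4.97% and 5.53% of all tested, and 0 passed in L, beside 4.99% higher and 4.78% lower. At an unadjusted p under 0.05 in limma's test were 3 in H and 1 in L, beside 22.8% of all tested in each. The 2 were AT3G15470, near AT3G15450, at -0.51 ± 0.08 (limma, adjusted p = 7.79e-04), and AT1G76400, near ATL8, at -0.37 ± 0.11 (0.0402). The call of AT1G76400 was lost with no filter, with a constant prior, with the replicate number as a block (0.0591), and without Ws-2 L 3 or any 1 array of condition H (up to 0.154). AT1G76405, next to ATL8, was at 0.35 ± 0.13 in H and 0.30 ± 0.13 in L (limma, adjusted p = 0.0996 and 0.178). AT3G26490, near AT3G26510, was at 0.09 ± 0.16 and -0.04 ± 0.16 (0.793 and 0.921). AT3G15430, near AT3G15450, was at -0.09 ± 0.11 and 0.05 ± 0.11 (0.695 and 0.85). AT3G15460, whose span overlaps that of AT3G15450, was at 0.0034 ± 0.14 in H and 0.20 ± 0.14 in L (limma, adjusted p = 0.993 and 0.442), and AT3G26510 overlaps AT3G26512, which has no probe set named here.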

How the data were processed

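Each array has 1 deposited intensity per probe set on a linear scale, and the submitters' processing notes name MAS5. No version is given in the sources used here. The trimmed mean (2% from each end) of each deposited array was 100.01, so a change shared by most transcripts would not be seen. The 64 controls were removed, arrays were scaled again to that trimmed mean, and log2(signal + 10) was analysed for the 16121 probe sets that reached 20 units on 3 or more arrays. GEO's annotation names 1 gene for 13513 probe sets, several for 503 and none for 8730. Of the 13513, 13436 matched a RefSeq gene (TAIR10.1).

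The limma package (3.58.1, R 4.3.3) fitted 4 group means over the 12 arrays, with a robust, intensity-dependent prior. Tests were two-sided, with Benjamini-Hochberg adjustment over all probe sets tested and a threshold of 0.05. The script was tested on simulated data. Precision is limited by the 3 arrays per group. The labels do not say that replicates came from separate plants, so the p-values cover the spread among these arrays alone, and it may be technical.

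The 5 genes and the gene lists were chosen with earlier results of these data known. Genes named beside them are all measured members of the YGL/LRDR family and of the SnRK1 subunits, the tested neighbours and AT5G19110. Named too are the called genes of the 2 sugar lists, and the 3 genes nearest in Pearson r to each of the 5. Uncalled genes of the sugar lists and neighbours beyond AT5G19100 and AT5G19110 were added after their values were seen. Each array was left out in turn, and other settings tried were an offset of 1 or of 32, a filter at 50 or none, values without rescaling, quantile normalization, a constant prior, and the replicate number as a block.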

Additional observations from a re-analysis of the deposited data

How the results depend on the processing

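With the offset at 1, AT5G19120 differed between ape2 and Ws-2 by 2.75 in H and 2.32 in L, and between H and L by -1.59 in ape2 and -2.01 in Ws-2, and its interaction turned to 0.428. With 32 these were 0.715, 1.21, -0.926 and -0.433. For ATL8 an offset of 1 gave 0.652 between the genotypes in H, -1.06 and -1.21 between the conditions in ape2 and Ws-2, and -1.14 for their mean, and an offset of 32 gave 0.183, -0.459, -0.404 and -0.432. An offset shrinks dim signals by construction. The averaged H minus L value of AT3G26510 was 0.314 with no filter and with a constant prior, where limma's adjusted p was 0.0502 and 0.0672, and 0.244 to 0.364 without single arrays. That of AT3G15450 was -0.312 to -0.204 without single arrays. Calls numbered 1030 to 1602 in the genotype comparison in L, 1098 to 1847 in H and 978 to 1340 between the conditions without single arrays, against 1576, 1693 and 1327. Without Ws-2 L 2 or Ws-2 L 3 they numbered 1030 and 1048 in L, and without Ws-2 H 3 they numbered 1098 in H. Of the other sugar-repressed genes, 1 to 2 were higher in L and 0 to 1 lower between the conditions without single arrays. Of the sugar-induced genes, 1 to 2 were lower in L without single arrays, and 1 was lower with no filter and with a filter at 50, where APL4 was not tested. With the replicate number as a block, 2 sugar-repressed genes were higher in L, AKINBETA1 and AT4G27450, and 1 sugar-induced gene was lower, since APL4 no longer passed, and AT5G19120 kept its averaged value of -1.13 (limma, adjusted p = 2.54e-04). Of 18 same-numbered pairs of arrays 3 had deviations with a correlation over 0.1 (range -0.28 to 0.37). These values do not settle whether same-numbered arrays share more than a number. Where not stated, the cause was not tested. With a filter at 50, ATL8 was not tested. Quantile normalization and no rescaling changed no call described here. Dim signals, in Ws-2 H for AT5G19120 and in condition H for ATL8, limit the precision of their sizes.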
